A study of Rattus norvegicus with 20 samples.

Results

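The CYP4 cytochromes P450 of the rat nose were described across olfactory and respiratory epithelium of both sexes. The members were the probe sets of a rat genome expression array whose single annotated symbol was Cyp4a8, Cyp4b1, Cyp4f4, Cyp4f5 or Cyp4f6. These were 6 probe sets of 5 genes, since Cyp4a8 had 2, out of 31042 probe sets naming 14217 genes. The choice of members used no measured value, although earlier results of these data were known when they were chosen.

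RNA came from untreated adult Sprague-Dawley rats, an outbred stock with no genetic modification, and was hybridised to 1 array per sample. There were 6 male respiratory arrays (3 from rats aged 11 weeks, 1 aged 13 and 2 aged 14), 6 male olfactory arrays (3 aged 11 weeks, 1 aged 13 and 2 aged 14), 6 female respiratory arrays (1 aged 11 weeks, 3 aged 13 and 2 aged 14) and 2 female olfactory arrays (1 aged 13 weeks and 1 aged 14). The labels name 13 animals, 7 of which (5 males and 2 females) gave both tissues. The epithelium was taken by hand from the septum and the turbinates, so each sample is a mixture of the cells of that mucosa, and fewer cells of a type cannot be told apart from less RNA per cell.

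CYP4 enzymes are membrane-bound monooxygenases that place a hydroxyl group at or next to the end of a fatty acid chain, called omega-hydroxylation. They take electrons from NADPH-cytochrome P450 reductase. The CYP4A enzymes act on medium-chain and long-chain fatty acids, and several of them on arachidonic acid. In liver and kidney several of their genes are induced through the fatty acid receptor PPAR alpha. The CYP4F enzymes hydroxylate eicosanoids such as leukotrienes, which limits their action in inflammation. CYP4B1 is known from lung and nasal tissue, where it hydroxylates short and medium fatty acids and also turns some inhaled or ingested compounds into reactive products.

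By RefSeq's GRCr8 assembly the genes lie in clusters on 2 chromosomes: Cyp4a8 at chr5:133938882-133970226, Cyp4b1 at chr5:134375807-134413635, Cyp4f5 at chr7:12194567-12209495, Cyp4f4 at chr7:12367711-12384010 and Cyp4f6 at chr7:12680799-12708378. Where in each transcript the probes lie was not analysed here. These chromosome neighbours differed in how their RNA was spread over the tissues. The 250 bases before the transcript start in the RefSeq table are therefore shown, 5′ to 3′, for 4 of the 5 genes. No such window was available for Cyp4f4, the only member called higher in olfactory tissue. Its neighbours Cyp4f5 and Cyp4f6 were both called lower there in males, so the windows shown do not cover the contrast between Cyp4f4 and these genes. Capitals mark a motif match.

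Cyp4a8 promoter, chr5:133970227-133970476, minus strand: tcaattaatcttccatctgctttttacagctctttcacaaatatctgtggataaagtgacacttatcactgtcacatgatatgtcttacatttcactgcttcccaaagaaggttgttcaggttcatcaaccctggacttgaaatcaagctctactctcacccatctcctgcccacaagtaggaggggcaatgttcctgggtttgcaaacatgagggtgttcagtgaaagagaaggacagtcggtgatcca
Cyp4b1 promoter, chr5:134393117-134393366, minus strand: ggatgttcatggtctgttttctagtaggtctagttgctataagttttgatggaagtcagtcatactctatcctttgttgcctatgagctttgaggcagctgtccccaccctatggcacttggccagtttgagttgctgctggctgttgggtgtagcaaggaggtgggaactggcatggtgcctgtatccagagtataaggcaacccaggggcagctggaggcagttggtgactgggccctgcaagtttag
Cyp4f5 promoter, chr7:12194387-12194636, plus strand: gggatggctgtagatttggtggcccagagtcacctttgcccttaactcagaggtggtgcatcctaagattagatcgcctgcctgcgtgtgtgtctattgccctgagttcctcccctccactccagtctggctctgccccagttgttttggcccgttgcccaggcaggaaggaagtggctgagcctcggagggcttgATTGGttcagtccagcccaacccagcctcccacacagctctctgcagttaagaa
Cyp4f6 promoter, chr7:12708379-12708628, minus strand: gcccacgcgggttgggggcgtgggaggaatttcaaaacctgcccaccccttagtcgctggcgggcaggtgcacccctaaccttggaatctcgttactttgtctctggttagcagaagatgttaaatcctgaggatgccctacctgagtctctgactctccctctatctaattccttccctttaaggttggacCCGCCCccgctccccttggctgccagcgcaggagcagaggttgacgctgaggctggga

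Cyp4a8 had 43.2% G and C in this window, Cyp4b1 51.2%, Cyp4f5 57.2% and Cyp4f6 58.0%, against a median of 51.2% over all promoters of the table. The genes called lower in male olfactory tissue held both the lowest and the highest of these values, but they were 3 of the 4 shown. No window of a gene called higher was available, so these values cannot be set against the direction of the tissue difference. The starts used for Cyp4b1 and Cyp4f5 lie inside the annotated spans of those genes, so all of the Cyp4b1 window and the end of the Cyp4f5 window, with its CCAAT box, lie within the gene as annotated. Both strands were searched for the nuclear receptor half-site AGGTCA (in 14.1% of 33469 promoters of this length), for 2 such half-sites in a row as AGGTCANAGGTCA, the form that PPAR and RXR bind (in 0.0508%), for TATAAA (in 12.9%), for CCAAT (in 34.0%) and for GGGCGG (in 30.5%). The search for AGGTCANAGGTCA overlaps the search for AGGTCA. Cyp4f5 held 1 CCAAT box, read as ATTGG from 54 to 50 bases before the start. Cyp4f6 held 1 GC box, read as CCGCCC from 58 to 53 bases before the start. The windows of Cyp4a8 and Cyp4b1 held none of these letters.

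The arrays were comparable in overall signal: the median over all probe sets was 133.5 to 192.5 per array, and the background level, below which 95% of 27 bacterial control probe sets lie on an array, was 28.2 to 64.9. Values are linear signals scaled by the authors, and differences are olfactory minus respiratory means of log2(signal + 16), which understates the change of weak probe sets. The number of arrays limits the precision. RNA integrity numbers moved with tissue: 8.2 to 8.8 on 5 male olfactory arrays, 9.1 to 9.3 on 4 male respiratory arrays, 8.3 on both female olfactory arrays and 8.7 to 9.3 on the 6 female respiratory arrays. Male respiratory 7 and female respiratory 8 stood apart from the other respiratory arrays, at -97.5 and -113.3 on a second principal component that ran from -5.4 to 32.6 on the rest. The tissue labels were checked on Omp, the marker protein of mature olfactory neurons, which was higher in olfactory tissue by 3.84 (log2, SE 0.42, limma adjusted p = 3.73e-07) in males. RNA of these neurons was also present in respiratory samples: the mean log2 level over 8 neuron markers was 8.09 to 9.84 on male respiratory and 8.43 to 10.91 on female respiratory arrays, against 11.53 to 12.3 on male olfactory and 11.95 to 12.13 on female olfactory arrays.

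The tissue difference divided the CYP4 members. In males Cyp4a8, Cyp4f5 and Cyp4f6 were lower in olfactory than in respiratory epithelium, Cyp4f4 was higher, and Cyp4b1 did not pass the test. In all, 5 of the 6 member probe sets were called at a limma adjusted p under 0.05, 4 lower and 1 higher, where 25.2% of all probe sets were called (13.6% lower and 11.6% higher). In females 3 of 6 were called, both Cyp4a8 probe sets lower and Cyp4f4 higher, where 17.9% of all probe sets were called (10.3% lower and 7.64% higher). With both sexes averaged these same 3 probe sets were called, where 34.7% of all were.

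**Figure D1:**
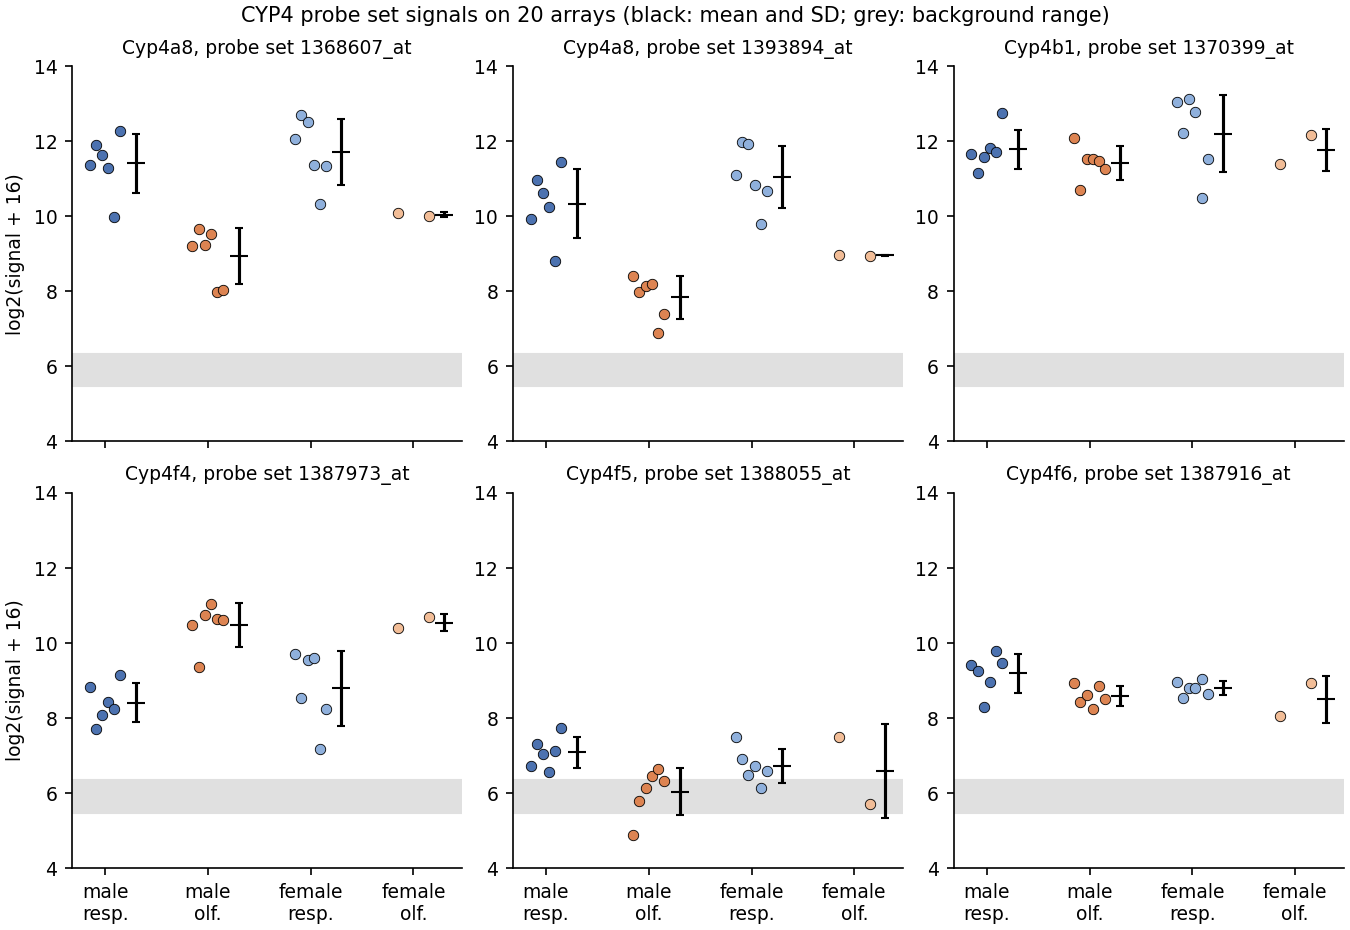
Signals of the 6 CYP4 probe sets on all 20 arrays, as log2(signal + 16) on the vertical axis, by sex and tissue (resp., respiratory; olf., olfactory). Points are arrays, black bars the mean and SD of a group (n = 6, 6, 6 and 2), and the grey band the range of background over arrays. Cyp4a8 sits lower and Cyp4f4 higher on every olfactory array of a sex than on any respiratory array of that sex, while the Cyp4b1 groups overlap and Cyp4f5 reaches the band.

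Cyp4a8, a CYP4A fatty acid hydroxylase, had the largest tissue difference of the members in males. Its first probe set, 1368607_at, gave signals of 989.7 to 4983 (median 2900.1) on male respiratory arrays and 238.6 to 799.5 (median 585.6) on male olfactory arrays. Every male olfactory array was below every male respiratory array, and male respiratory 7 was the lowest of the respiratory arrays. The mean log2 level was 8.95 ± 0.74 (SD, n = 6) in olfactory and 11.41 ± 0.79 (n = 6) in respiratory tissue, a difference of -2.46 (SE 0.40, 95% interval -3.28 to -1.64, limma adjusted p = 5.12e-05), or 5.50-fold lower.

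The second Cyp4a8 probe set, 1393894_at, gave 433.8 to 2774 (median 1384) on male respiratory and 102.8 to 325.4 (median 253.0) on male olfactory arrays, again with no overlap. Its difference was -2.50 (SE 0.39, adjusted p = 3.26e-05), so both probe sets gave nearly the same change. In females the first probe set gave 1012 and 1072 on the 2 olfactory arrays against 1269 to 6636 (median 3421) on 6 respiratory arrays, and the second 480.3 and 481.7 against 867.3 to 3993 (median 1990). Neither probe set overlapped between tissues, though the lowest respiratory array, female respiratory 8, came close to the olfactory pair in the first. The female differences were -1.67 (SE 0.56, adjusted p = 0.0409) and -2.09 (SE 0.55, adjusted p = 0.00978).

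Without the 2 respiratory arrays that stood apart the male Cyp4a8 differences were -2.75 and -2.81 (adjusted p = 8.61e-07 and 4.25e-07) and the female ones -1.95 and -2.35 (adjusted p = 0.00216 and 0.000319). With the RNA integrity number in the model the first probe set was no longer called in males (-1.39, adjusted p = 0.13) and the second was (-1.98, adjusted p = 0.0278), while in females neither was (-0.38 and -1.25, adjusted p = 0.81 and 0.28). That model used the 17 arrays with a number, and calls over all probe sets also fell, in males from 7203 on those arrays without the covariate to 2347 with it and in females from 6235 to 1133. The female call of the first Cyp4a8 probe set was lost when any 1 of 5 arrays was left out, namely female olfactory 6 or 8 or female respiratory 3, 4 or 6 (adjusted p = 0.0647 to 0.205), and that of the second when either female olfactory array was (adjusted p = 0.0797 and 0.1).

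Markers of several cell types of respiratory and transitional mucosa were lower in olfactory tissue as well. In males the mean log2 level of 9 basal cell markers was 10.18 to 11.39 on respiratory and 8.41 to 9.52 on olfactory arrays, that of 10 secretory and goblet cell markers 9.49 to 10.85 and 8.18 to 9.39, that of 9 squamous markers 7.83 to 9.94 and 6.0 to 6.63, and that of 11 leukocyte markers 8.25 to 8.79 and 6.6 to 7.23. Krt13 and Serpinb2 among the squamous markers, and Cd79b, Cd163 and Itgam among the leukocyte markers, were not above background on any male olfactory array. The 6 ciliated cell markers gave 10.13 to 10.98 on respiratory and 10.21 to 10.67 on olfactory arrays and overlapped. The part of these cells in the Cyp4a8 difference was not tested between tissues. Among the 12 respiratory arrays, Cyp4a8 had no relation to any of the 8 marker lists past the threshold. Its r ran from -0.41 with leukocyte to 0.32 with connective tissue markers. With ciliated cell markers r depended on the arrays used. It was 0.28 over all 12, 0.88 without the 2 arrays farthest from the median of these markers and -0.16 without the 2 that stood apart. For the other lists r without the 2 farthest arrays was -0.34 to 0.31.

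Cyp4f4, a CYP4F enzyme of eicosanoid hydroxylation, was the only member probe set called higher in olfactory tissue in the male and female comparisons. Signals were 191.7 to 549.2 (median 309.9) on male respiratory arrays and 642.9 to 2072 (median 1561) on male olfactory arrays. No male arrays overlapped between tissues, and male olfactory 10 was the lowest of its group. The mean log2 level was 10.48 ± 0.58 (SD, n = 6) in olfactory and 8.41 ± 0.52 (n = 6) in respiratory tissue, a difference of 2.07 (SE 0.37, 95% interval 1.32 to 2.83, adjusted p = 0.000146), or 4.20-fold higher.

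In females the 2 olfactory arrays gave Cyp4f4 signals of 1330.0 and 1647 and the 6 respiratory arrays 129.7 to 815.5 (median 542.0), with no overlap. The female difference was 1.75 (SE 0.52, adjusted p = 0.0209). It was not called when female olfactory 6 or female olfactory 8 was left out (adjusted p = 0.114 and 0.158), which leaves 1 array in that group, assumed to vary like the other groups. With the RNA integrity number in the model the Cyp4f4 difference was 2.45 in males (adjusted p = 0.0458) and 2.10 in females (adjusted p = 0.168). Neuron and sustentacular markers were higher in olfactory tissue too, the sustentacular markers at mean log2 levels of 10.61 to 12.38 on male respiratory and 13.2 to 13.75 on male olfactory arrays. Their part in the Cyp4f4 difference was not tested.

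Cyp4f5 and Cyp4f6, 2 further CYP4F genes, had smaller differences in the direction of Cyp4a8. Cyp4f5 was weak, with signals of 78.3 to 199.1 (median 119.5) on male respiratory and 13.8 to 83.4 (median 59.3) on male olfactory arrays. It was above background on 6 of 6 male respiratory, 4 of 6 male olfactory, 5 of 6 female respiratory and 1 of 2 female olfactory arrays, and the male groups overlapped slightly. The male Cyp4f5 difference was -1.04 (SE 0.34, 95% interval -1.75 to -0.34, adjusted p = 0.0256). It was not called without male olfactory 1 (adjusted p = 0.0756), male respiratory 2 (0.0532) or male respiratory 8 (0.0704), nor with the RNA integrity number in the model (-0.67, adjusted p = 0.626). In females Cyp4f5 gave 36.1 and 163.1 on olfactory and 54.9 to 164.0 (median 84.4) on respiratory arrays, which overlapped, with a difference of -0.13 (95% interval -1.12 to 0.87, adjusted p = 0.891).

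Cyp4f6 gave 298.2 to 870.6 (median 630.2) on male respiratory and 287.4 to 470.5 (median 360.1) on male olfactory arrays. The groups overlapped, and male respiratory 3 was as low as the olfactory arrays. The difference of -0.61 (SE 0.22, 95% interval -1.07 to -0.15, adjusted p = 0.0481) lay just within the threshold. The Cyp4f6 call held under 11 of 34 alternative settings. It was lost when any 1 of 14 arrays was left out: male respiratory 1, 2, 4, 7 or 8, male olfactory 2, 3, 7 or 10, or female respiratory 3, 4, 6, 7 or 9 (adjusted p = 0.052 to 0.104), where leaving out a female array changes only the shared error. In females Cyp4f6 gave 250.5 and 473.8 on olfactory and 355.7 to 515.0 (median 427.2) on respiratory arrays, a difference of -0.30 (95% interval -0.95 to 0.35, adjusted p = 0.561).

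Cyp4b1, the CYP4 enzyme best known for activating inhaled compounds, did not differ between tissues by a margin the test could call. Its signals were 2250 to 6882 (median 3285) on male respiratory, 1661 to 4365 (median 2862) on male olfactory and 1427 to 8975 (median 5891) on female respiratory arrays, and 2657 and 4612 on the female olfactory pair. All 4 groups overlapped, and the female respiratory arrays spanned the whole range of the others. The difference was -0.35 in males (95% interval -1.10 to 0.40, adjusted p = 0.539) and -0.42 in females (95% interval -1.48 to 0.64, adjusted p = 0.629), so differences of up to about these bounds remain possible.

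**Figure D2:**
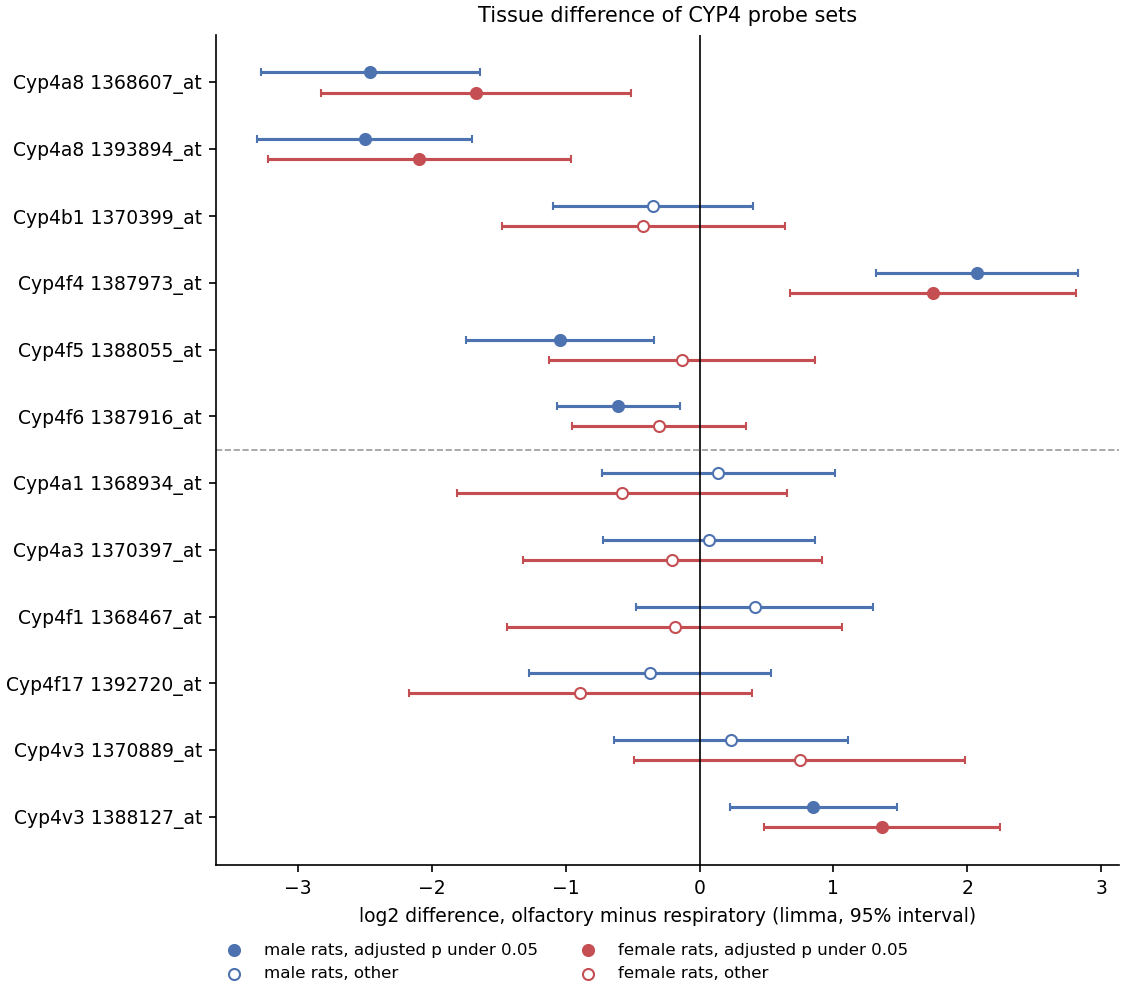
Olfactory minus respiratory difference (log2, horizontal axis) of each CYP4 probe set in male and female rats, with 95% intervals from limma. Filled points have an adjusted p under 0.05, and members stand above the dashed line and other CYP4 genes of the array below it. Cyp4a8 lies left of 0 and Cyp4f4 right of it in both sexes, and the Cyp4b1 intervals include 0.

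Within animals the same order was seen, as a description of 7 rats that gave both tissues. Both Cyp4a8 probe sets were lower in olfactory tissue in 7 of 7 rats, with differences of -3.30 to -0.32 for the first (median -2.15) and -3.36 to -0.83 for the second (median -2.43). The smallest first-probe-set difference, -0.32, was that of female 8, whose respiratory array was 1 of those standing apart. Cyp4f4 was higher in olfactory tissue in 7 of 7 rats, by 0.85 to 3.51 (median 2.36). Cyp4f6 was lower in 7 of 7, from -0.05 in male 3 to -1.29 in male 7 (median -0.48). Cyp4f5 was lower in 5 of 7 and Cyp4b1 in 4 of 7, the latter from -1.75 in female 6 to 1.68 in female 8. With animal as a fixed replicate block in the 5 males, the Cyp4a8 differences were -2.43 and -2.31 (adjusted p = 1.22e-05 and 0.000132) and that of Cyp4f4 was 2.44 (adjusted p = 1.65e-05). Cyp4f5 and Cyp4f6 were then not called (adjusted p = 0.0942 and 0.104), as they also were not in those 10 arrays without the block (adjusted p = 0.101 and 0.193).

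**Figure D3:**
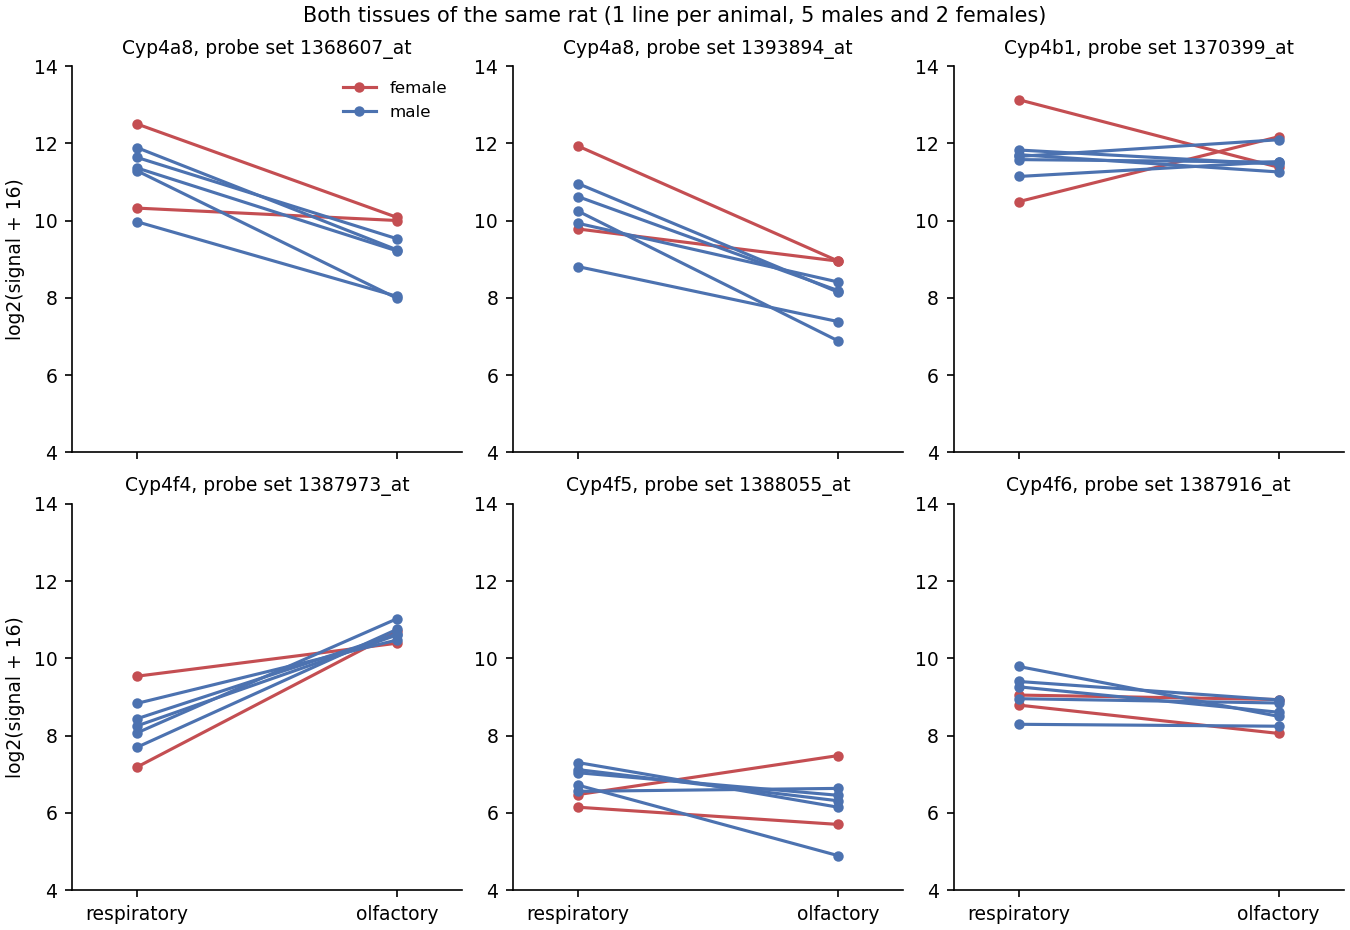
Both tissues of the same rat for the 6 CYP4 probe sets, as log2(signal + 16) on the vertical axis. A line joins the respiratory and olfactory array of 1 animal, in blue for 5 males and in red for 2 females. All 7 lines fall for both Cyp4a8 probe sets and rise for Cyp4f4, and they cross for Cyp4b1.

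The sexes were not told apart by the CYP4 members. In respiratory tissue 0 of 6 member probe sets were called between females and males, where 0.0258% of all probe sets were, and in olfactory tissue 0 of 6, where 0.0419% were. None had an unadjusted limma p under 0.05. The nearest were Cyp4a8 1393894_at in olfactory tissue, higher in females by 1.12 (95% interval -0.02 to 2.25, unadjusted p = 0.0529, adjusted p = 0.969), and Cyp4a8 1368607_at there by 1.10 (95% interval -0.06 to 2.25, unadjusted p = 0.0624). Both female olfactory arrays were above all 6 male ones in both probe sets. For Cyp4b1 the female minus male difference in respiratory tissue was 0.42 (95% interval -0.33 to 1.17) and for Cyp4f4 0.39 (95% interval -0.36 to 1.15). The tissue difference itself was not shown to depend on sex: 0 of 6 members and 0% of all probe sets were called for the interaction, where no member had an unadjusted limma p under 0.05. The female minus male difference in tissue effect was 0.91 for Cyp4f5 (SE 0.59, 95% interval -0.30 to 2.13, adjusted p = 0.924). With 2 female olfactory arrays these intervals are wide.

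Among the 12 respiratory arrays, each from a different rat, Cyp4b1 and Cyp4f4 varied together. Of this pair Cyp4f4 was called between the tissues and Cyp4b1 was not. Their log2 levels had a Pearson r of 0.96 and a Spearman rho of 0.93 (two-sided permutation p = 2e-05 and 5e-05, adjusted over 10 gene pairs to 0.0002 and 0.0005). Cyp4b1 was 1427 and Cyp4f4 129.7 on female respiratory 8, the lowest array for both genes. At the other end, female respiratory 3, 6 and 7 gave the 3 highest signals of each gene, 7036 to 8975 for Cyp4b1 and 728.6 to 815.5 for Cyp4f4. Without the 2 arrays farthest from the median the r was 0.92, and with any 1 array left out 0.94 to 0.98. Without the 2 arrays that stood apart it was 0.94. Within 6 males r was 0.86 and within 6 females 0.98, but 0 member pairs passed the adjusted threshold within either sex. Over the 8 olfactory arrays r was 0.63, as a description, since 7 of these arrays came from rats that also gave a respiratory array.

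**Figure D4:**
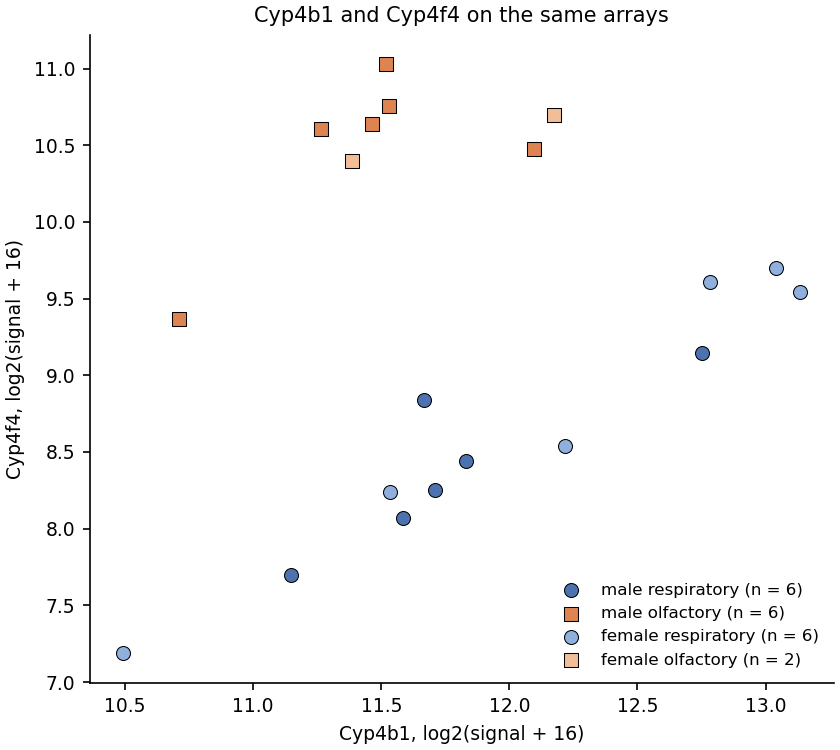
Cyp4b1 (horizontal axis) against Cyp4f4 (vertical axis) on the same 20 arrays, both as log2(signal + 16). Circles are respiratory and squares olfactory arrays, dark for males and light for females. The 12 respiratory arrays lie along a rising band (r = 0.96), and the olfactory arrays lie above it, with Cyp4b1 in the same range and Cyp4f4 higher.

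No other pair of members passed the adjusted threshold. Cyp4a8 and Cyp4b1 came nearest (r = 0.61, rho = 0.52, permutation p = 0.0344 and 0.0839, adjusted 0.172 and 0.42), and their r was 0.35 without the 2 farthest arrays. The other 8 pairs had r from -0.43 to 0.51. For relations to cell types, the log2 level of each marker was first scaled to equal mean and spread over the arrays used. The mean of these scaled levels was the marker score of a cell type. Of 40 relations between a member and a marker score on the respiratory arrays, 0 passed after adjustment and 2 had an unadjusted p under 0.05. Both were of Cyp4f4, with mature olfactory neuron markers (r = 0.63, rho = 0.61, permutation p = 0.03 and 0.0414, adjusted 0.601 and 0.727) and with leukocyte markers (r = -0.65, rho = -0.59, permutation p = 0.0239 and 0.0481, adjusted 0.601 and 0.727). The neuron relation was 0.26 without the 2 farthest arrays, 0.52 within males and 0.62 within females. The leukocyte relation was -0.42, -0.23 and -0.77 in turn. Without the 2 arrays that stood apart, chosen after seeing the values, r of Cyp4f4 was 0.79 with neuron and -0.65 with leukocyte markers. With sustentacular markers it was 0.85 there and 0.50 over all 12 (rho = 0.57, permutation p = 0.101 and 0.061, adjusted 0.669 and 0.727). In that setting 0 of 40 relations passed after adjustment, with 4 at an unadjusted p under 0.05. Over the 8 olfactory arrays r of Cyp4f4 was 0.87 with neuron, -0.66 with sustentacular and 0.13 with leukocyte markers, as a description.

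The genes whose log2 levels were most like each member's over the 12 respiratory arrays were sought among 10510 genes above background on all of them. The members were left out of this search, so Cyp4b1 and Cyp4f4, with an r of 0.96, could not name each other. It is a description in which all genes share the same 12 RNA samples. For Cyp4b1 these were Ptgs1 (r = 0.96), Kif21a (0.95), Synm (0.93), Cnst (0.93) and Vipr1 (0.93). For Cyp4f4 they were Cnst (0.94), Ssbp2 (0.93), Ptgs1 (0.92), Gab1 (0.92) and Mettl7a (0.91), so that Ptgs1 and Cnst were named for both genes. Over the 8 olfactory arrays Ptgs1 had an r of 0.34 with Cyp4b1 and 0.58 with Cyp4f4, and the rest of these genes ran from -0.31 (Synm) to 0.62 (Vipr1) with Cyp4b1 and from 0.55 (Gab1) to 0.89 (Mettl7a) with Cyp4f4. Ptgs1 encodes a cyclooxygenase, which starts prostaglandin synthesis from arachidonic acid. For Cyp4a8 the genes were Six4 (0.94), Efr3a (0.94), Usp34 (0.93), Ptpn13 (0.93) and Tfcp2l1 (0.93). Without the 2 arrays that stood apart these had r of 0.80 to 0.89, and on olfactory arrays -0.15 to 0.47. For Cyp4f5 they were Pisd (0.85), Krt23 (0.83), Plcg1 (0.83), Cdh13 (0.82) and Taldo1 (0.80), and for Cyp4f6 Slc6a9 (0.89), Nectin1 (0.88), Aven (0.84), Lrrc29 (0.84) and Rhov (0.84). On olfactory arrays the first 5 had r of -0.34 to 0.26 with Cyp4f5 and the other 5 had -0.10 to 0.13 with Cyp4f6. Each list was picked as the highest r among 10510 genes. How high an r such a search gives by chance was not tested.

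Of the other CYP4 genes, 5 had a probe set with a single symbol, in 6 probe sets. Cyp4v3, a fatty acid omega-hydroxylase, was the only one called, by its brighter probe set. With both of its probe sets averaged it was called in neither sex (0 of 5 genes), and was called over both sexes together (1 of 5). Its brighter probe set, 1388127_at, gave 362.0 to 1089 (median 699.4) on male respiratory, 707.3 to 2090.1 (median 1184) on male olfactory and 343.3 to 1088 (median 777.6) on female respiratory arrays, and 1621 and 1894 on the female olfactory pair. The tissues overlapped in males and not in females. Cyp4v3 was higher in olfactory tissue by 0.85 in males (SE 0.30, adjusted p = 0.041) and 1.36 in females (SE 0.43, adjusted p = 0.0287), and in 7 of 7 animals. The male call was lost without male olfactory 1, 3 or 4 or male respiratory 1, 2 or 7 (adjusted p = 0.0655 to 0.102), and the female call without female respiratory 3 or 7 or either female olfactory array (adjusted p = 0.0504 to 0.181). The weaker Cyp4v3 probe set, 1370889_at, had signals of 7.3 to 165.4 and differences of 0.23 in males and 0.75 in females (adjusted p = 0.75 and 0.429).

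Cyp4a1, Cyp4a3, Cyp4f1 and Cyp4f17 were weak and not called in either sex. Cyp4a3, a CYP4A gene, gave signals of 25.3 to 193.9 over the 20 arrays with a male difference of 0.07 (95% interval -0.72 to 0.87). Cyp4f1 gave 3.1 to 111.3 with a male difference of 0.41 (95% interval -0.47 to 1.30), and Cyp4f17 gave 5.8 to 141.0 with a male difference of -0.37 (95% interval -1.28 to 0.54). The probe set annotated Cyp4a1, 1368934_at, gave 3.8 to 91.7 and a male difference of 0.14 (95% interval -0.73 to 1.02). Its annotated accession belongs to Cyp4b1 in RefSeq while its gene identifier is that of Cyp4a1, so its gene is uncertain. It was above background on 7 of 20 arrays, whereas the Cyp4b1 member probe set was on all 20.

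The enzymes and receptors around CYP4 were counted in males over lists of genes, against 17.8% of 14217 named genes lower and 14.0% higher in olfactory tissue, with a median difference of -0.05. Of 10 measured electron donors and other partner genes of P450, which include the haem genes Alas1 and Hmox1 and the membrane proteins Pgrmc1 and Pgrmc2, 2 were higher in olfactory tissue and 1 was lower (median 0.32). Por, the reductase that supplies all microsomal P450, was higher by 1.05 (SE 0.31, adjusted p = 0.0142) and Cyb5r2, a cytochrome b5 reductase, by 1.07 (SE 0.21, adjusted p = 0.000461), while Cyb5b, an outer mitochondrial membrane cytochrome b5, was lower (-0.72). Of 13 PPAR and RXR receptors and partners 4 were higher and 2 lower (median -0.02). The largest fitted differences in that list were -2.88 for Fabp4, a fatty acid carrier of fat cells and macrophages that was above background on 2 of 6 male olfactory arrays, 1.19 for Ncoa1 and 1.18 for Ppargc1b, both coactivators. With all probe sets of a gene averaged the counts of that list were 2 higher and 3 lower. Ppara, the gene of PPAR alpha itself, was above background on 0 of 6 male olfactory and 0 of 6 male respiratory arrays. No tissue difference of Ppara could therefore be read. Of 22 PPAR alpha target genes of fatty acid oxidation and other steps, such as uptake and desaturation, 2 were higher and 8 lower (median -0.55). Cd36, a fatty acid transporter, was higher by 1.53 and Acot1, an acyl-CoA thioesterase, by 1.46, and Fads2, a desaturase, was lower (-1.30).

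The substrates of CYP4F enzymes come from arachidonic acid. Of 30 arachidonic acid and eicosanoid enzymes 4 were higher and 13 lower in male olfactory tissue (median -0.44). The phospholipase Pla2g2a was lower (-2.55, SE 0.54, adjusted p = 0.000955), a difference set partly by background, since 1 of 6 olfactory arrays was above it, and so was Ptgs1 (-2.54, SE 0.34, adjusted p = 4.9e-06), whereas Ptgds, a prostaglandin D synthase, was higher by 2.52 (SE 0.37, adjusted p = 1.63e-05). Ptgs1, the gene outside the members most like Cyp4b1 among respiratory arrays, had a tissue difference outside the 95% interval of the Cyp4b1 difference, -1.10 to 0.40. Of 11 receptors for leukotrienes, prostaglandins and related compounds, counting the thromboxane receptor Tbxa2r and Gpr75, 3 were higher and 1 lower (median 0.16). They were led by the prostaglandin E receptors Ptger2 (2.16), Ptger4 (-1.54) and Ptger3 (1.18), where Ptger2 was above background on 2 of 6 respiratory and Ptger4 on 2 of 6 olfactory arrays. Only 1 of the 11 receptors was above background on all arrays. The leukotriene receptors Ltb4r, Ltb4r2, Cysltr1 and Cysltr2 were above it on 0 to 3 of 6 arrays of a male group. Gpr75 was above it on 0 of 6 male olfactory and 0 of 6 male respiratory arrays. A tissue difference of these receptors could therefore hardly be measured. Of 11 genes for the further oxidation of omega-hydroxy fatty acids 3 were higher and 4 lower (median -0.004). The alcohol dehydrogenase Adh7 was lower (-5.04, SE 0.53, adjusted p = 2.26e-07, above background on 4 of 6 olfactory arrays) and the aldehyde dehydrogenase Aldh3a1 also (-3.67, SE 0.32, adjusted p = 1.72e-08), and the alcohol dehydrogenase Adh1c was higher by 2.44 (SE 0.36, adjusted p = 2.03e-05).

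The same count over cell type markers gave 7 of 8 mature olfactory neuron markers higher and 0 lower, led by Gng13 (4.61), Ano2 (4.30) and Cnga2 (4.18), parts of the odour transduction cascade. It gave 6 of 8 sustentacular markers higher and 0 lower, led by Sult1d1 (3.56), Cyp1a2 (3.35) and Ugt2a1 (2.80), all xenobiotic enzymes. Of 6 ciliated cell markers Tekt2 was higher (1.22) and Dnai1 lower (-1.04). Of 10 secretory and goblet cell markers 5 were lower and 0 higher, led by Muc5ac (-5.74), Clca1 (-1.94) and Foxa3 (-1.26), which were above background on 5, 3 and 2 of 6 olfactory arrays. Of 9 basal cell markers 8 were lower and 0 higher, led by Krt15 (-4.24), Itga6 (-2.38) and Tp63 (-2.23). Of 9 squamous markers 5 were lower and 0 higher, with Serpinb2, Sprr3 and Krt13 as the 3 largest fitted differences. Serpinb2 and Krt13 had only a bound in olfactory tissue and were at least 24.0-fold and at least 7.05-fold lower (adjusted p = 2.88e-07 and 1.02e-05), taking the background of each array as the olfactory level. Sprr3 (-4.48) was above background on 1 of 6 male olfactory arrays. Of 11 leukocyte markers 9 were lower and 0 higher, led by Ptprc (-2.94), Cd3e (-2.26) and Cd68 (-2.25), of which Cd3e was above background on 3 of 6 olfactory arrays. Of 8 connective tissue markers 5 were lower and 0 higher, led by Col3a1 (-1.60), Dcn (-1.37) and Lum (-1.27). Apart from the ciliated cell markers, which were divided, the called markers of a cell type all differed in the same direction between the tissues. How much each cell type holds of any CYP4 RNA was not tested.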

How the data were processed

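The deposited values are 1 linear signal intensity per probe set and array, made by the authors with GCOS 1.0 per the submitters' processing notes. Which algorithm of that software was used is not given in the sources used here. With 2% of values trimmed from either end, array means lay between 500.1 and 500.3 on every array, and this scaling was kept. Of 31099 probe sets 57 controls were left out. Annotation gave 1 symbol for 20826 probe sets, several for 436 and none for 9780, and 1 CYP4 probe set with several symbols was not used. Of 2901 accessions found in RefSeq, 11 named another gene than the annotation.

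An offset of 16 preceded the log2 scale. The 4 group means over 20 arrays were estimated in limma 3.58.1 (R 4.3.3) with an intensity trend. Adjusted p-values are Benjamini-Hochberg values over all 31042 probe sets, and under 0.05 a probe set was called. SE is limma's standard error. Genes of a list were each read from their brightest probe set. Relations used 100000 permutations, or all orderings within a sex of 6 arrays, and each gene's brightest probe set. The code was tested on simulated data. Promoter sequences are from RefSeq, GRCr8.

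Arrays were paired by the animal number in the labels. Deviations from the group means correlated by -0.184 to 0.246 within animals, with a consensus correlation of 0.039. The values themselves thus gave little sign of the pairing. The members and lists were chosen with earlier results of these data known. The text names every CYP4 probe set, Omp, Por and the 3 called genes of a list with the largest male tissue difference. For each member it names the 5 most alike genes outside the members. The text also names Ppara, Gpr75 and the leukotriene receptors, for their weak signal, and some genes that a list's name does not describe. P-values measure the spread between rats of 1 study. Alternatives covered the offset, normalization, a filter on dim probe sets, the trend, the animal block, RNA integrity, age and each array left out.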

Additional observations from a re-analysis of the deposited data

Results flagged for a closer look

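Of 18 groups of 6 arrays tested over the 6 member probe sets, 1 held an array far from its others. For Cyp4f4, male olfactory 10 was at log2 9.36 while the other 5 male olfactory arrays were at 10.48 to 11.03, and this gap was 0.669 of the group's whole range. The same array had the lowest Cyp4b1 signal of the male olfactory arrays, 1661. Chance gives such a value in about 1 of 20 groups. Without this array Cyp4f4 remained higher in male olfactory tissue (log2 difference 2.29, limma adjusted p = 4.28e-05).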

How the results depend on the processing

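In males 5 of 6 member probe sets were called, and 3 with animal as a fixed replicate block in 5 males, 3 in those males without the block (chosen after seeing the data), 2 with the RNA integrity covariate, 3 within rats aged 11 weeks, and 3 to 5 with any 1 array left out. Over all 31042 probe sets male calls went from 7824 to 7493 with the fixed block, 6612 in those males without it, 2347 with the covariate (7203 on its 17 arrays without the covariate, with 4 members called) and 7777 within 11 weeks. In females 3 were called, 0 with the RNA integrity covariate and 0 to 3 with 1 array left out. Over both sexes 3 were called, 1 with that covariate, 3 with the fixed block of 7 animals and 3 to 4 with 1 array left out. The random replicate block gave 5, 3 and 3, as the main fit did. In the 5 males with both tissues the same 3 probe sets were called with and without the fixed block. Both sex contrasts and the interaction gave 0 throughout. Between members 1 relation passed, and 0 within males and 0 within females. The cause of each change was not tested, beyond the fewer arrays.

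Of the single values 20 of 1110 alternatives turned sign, none of them of a called value. The male tissue difference of Cyp4b1 was 0.25 within rats aged 11 weeks. The female tissue difference of Cyp4f5 was 0.14 after quantile normalization and 0.47 with the RNA integrity covariate. The respiratory sex difference of Cyp4a8 1368607_at was -0.064 on the arrays with an RNA integrity number, and the olfactory sex difference of Cyp4f6 was 0.026 after quantile normalization. With 1 array left out, the female tissue difference ran from -1.02 to 0.76 for Cyp4f5 and from -0.74 to 0.14 for Cyp4f6. The olfactory sex difference then ran from -0.046 to 0.75 for Cyp4b1, -0.53 to 0.35 for Cyp4f6, -0.15 to 0.22 for Cyp4f4 and -0.34 to 1.45 for Cyp4f5. The interaction ran from -0.47 to 0.33 for Cyp4b1 and -0.14 to 0.74 for Cyp4f6. With 2 female olfactory arrays these values are poorly limited, and weak signal limits Cyp4f5 further.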
